A study of Mus musculus with 4 samples.

Results

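The 10 genes Cd3d, Cd3e, Cd3g, Cd247, Ptcra, Rag1, Rag2, Lck, Zap70, and Il2ra were followed in single cells of the fetal mouse thymus. They encode the CD3 chains, the pre-TCR alpha chain, both subunits of the recombinase, the kinases LCK and ZAP70, and the IL-2 receptor alpha chain. They were taken by name from the list of 27998 genes, and all 10 were detected in each of the 4 libraries. Thymic lobes of E13 to 13.5 embryos had been digested with trypsin, and a single library had been made for each of 4 groups. The groups were wild-type Tbx1+/+ embryos from mothers injected with ethanol as carrier, and Tbx1neo2/neo2 embryos from mothers injected with carrier, with minoxidil, or with PGE2 (prostaglandin E2). The mothers were injected intraperitoneally early in gestation, and the embryos came from crosses of Tbx1+/neo2 mice. Tbx1neo2/neo2 mice carry a neomycin cassette in an intron of both copies of Tbx1, the hypomorphic state used as a model of 22q11.2 deletion syndrome with a small thymus. Hypoplastic lobes were pooled, and the number of embryos behind a library was not given in the sources used here. With 1 library per group there is no replicate, so no test across embryos was possible, and the age within E13 to 13.5, the litter, and the library cannot be told apart from genotype and treatment. Every interval below is a 95% interval that covers counting error only.

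In a T cell precursor, the recombinase made of RAG1 and RAG2 cuts the DNA beside gene segments of the TCR beta chain, which end joining proteins then rejoin. A productive beta chain pairs with the pre-TCR alpha chain encoded by Ptcra and with the CD3 chains, and LCK and ZAP70 carry the signal of this pre-TCR into the cell. Early precursors display the IL-2 receptor alpha chain (CD25) while they rearrange the beta chain. The constant genes of the TCR chains were not analysed here.

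Counts are unique molecular identifiers (UMIs), 1 per captured RNA molecule, and a level is given in CPM, the UMIs of a gene for every 1000000 UMIs of the cells summed. After filtering, 11474 Tbx1+/+ carrier cells, 10683 Tbx1neo2/neo2 carrier cells, 3201 minoxidil cells, and 4152 PGE2 cells were kept. Hematopoietic cells were selected by at least 2 UMIs of Ptprc, the gene of CD45, and by hemoglobin under 20% of the UMIs. These Ptprc-positive cells numbered 2333 (20.3% of kept cells), 892 (8.35%), 692 (21.6%), and 1142 (27.5%) in the same order of libraries, which is kept throughout. Their median depth was 37028, 31617, 65240, and 48223 UMIs per cell. The libraries shared 4 to 35 barcodes per pair, at most 0.447% of the smaller library. Tbx1 itself had 2.28 CPM (2.11–2.46), 2.33 (2.12–2.56), 2.46 (2.21–2.72), and 1.14 (0.982–1.33) in kept cells, so its counts did not separate the Tbx1+/+ library from the Tbx1neo2/neo2 carrier library, and genotypes are given as labelled.

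Ptprc-positive cells also included cells with markers of other types. A macrophage gate (UMIs of at least 4 of 10 macrophage markers) held 5.87%, 14.9%, 6.94%, and 3.68% of them, and all 10 of those markers were detected in every library, with summed levels of 323, 885, 378, and 231 CPM. The summed mesenchymal collagens Col1a1, Col1a2, and Col3a1 had 196, 983, 172, and 86.9 CPM. The summed parathyroid markers Pth, Chga, and Gcm2 had 147 CPM in the Tbx1+/+ carrier library and 0.0937, 0.188, and 0.0714 CPM in the others. Their part in the results was not tested. Levels were also taken within cells without the myeloid markers.

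The 4 CD3 genes encode the signalling chains that surround the antigen receptor. Cd3g, Cd3d, and Cd3e lie together on chromosome 9 (GRCm38, Cd3g at chr9:44969572-44980431 on the minus strand, Cd3d at chr9:44981786-44987339 on the plus strand, and Cd3e at chr9:44998740-45009627 on the minus strand), with 1354 bases between Cd3g and Cd3d and 11400 between Cd3d and Cd3e. Cd247, the gene of the zeta chain, lies apart at chr1:165788681-165877277 on the plus strand. The RefSeq promoter of Cd3g is shown because this gene gave the most UMIs of the 10. The line holds the 250 bases before the start of transcription (chr9:44980432-44980681, minus strand, GRCm38), read 5′ to 3′ along the gene, with 2 matches of CAGGTG on the opposite strand (148 and 35 bases before the start) and 1 match of AGATAA (104 bases before it) in capitals.

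Cd3g promoter: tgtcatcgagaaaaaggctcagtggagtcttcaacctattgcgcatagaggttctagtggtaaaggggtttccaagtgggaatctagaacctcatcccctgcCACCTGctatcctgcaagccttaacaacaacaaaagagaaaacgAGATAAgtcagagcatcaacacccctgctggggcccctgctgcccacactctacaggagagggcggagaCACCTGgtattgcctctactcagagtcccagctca

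In Ptprc-positive cells, Cd3g had 370 CPM (366–374) in the Tbx1+/+ carrier library, 510 (502–517) in the Tbx1neo2/neo2 carrier library, 554 (548–561) with minoxidil, and 1082 (1073–1090) with PGE2. Cd3d had 47.0 (45.6–48.4), 83.1 (80.0–86.3), 89.5 (86.8–92.2), and 251 (247–255) CPM. Both genes thus stood in the same order of libraries, with no overlap between the intervals of neighbours and the widest step before PGE2. Cd3e had 25.1 (24.1–26.1), 42.3 (40.1–44.7), 50.8 (48.8–52.9), and 140 (137–143) CPM, again in that order. In cells without myeloid markers, minoxidil was not above the Tbx1neo2/neo2 carrier library for Cd3g (580 against 602 CPM) or Cd3d (95.2 against 96.9). For Cd3e it was (53.7 against 49.9). Cd247, counted far less often (204 to 954 UMIs per library), had 3.22 (2.87–3.60), 6.37 (5.53–7.31), 5.99 (5.32–6.73), and 17.0 (16.0–18.1) CPM, and its intervals in the Tbx1neo2/neo2 carrier and minoxidil libraries overlapped.

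Ptcra encodes the pre-TCR alpha chain, which stands in for the TCR alpha chain before that gene has been rearranged. It lies at chr17:46755663-46763712 on the minus strand (GRCm38). The promoter is shown because Ptcra had the widest difference of the 10 genes in 2 of the 3 comparisons below. The line covers chr17:46763713-46763962 on the minus strand (RefSeq, GRCm38), and the capitals mark CAGCTG at 60 and 49 bases before the start. CAGCTG reads the same on both strands. Of 32817 RefSeq promoters of this length, 13% held CAGCTG and 1.26% held it at least 2 times.

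Ptcra promoter: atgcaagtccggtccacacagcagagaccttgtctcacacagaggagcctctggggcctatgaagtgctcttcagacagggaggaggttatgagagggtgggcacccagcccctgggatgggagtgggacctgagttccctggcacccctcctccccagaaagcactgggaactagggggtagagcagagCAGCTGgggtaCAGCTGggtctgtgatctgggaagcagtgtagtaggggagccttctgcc

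The level of Ptcra in Ptprc-positive cells was 16.4 CPM (15.6–17.2), 35.5 (33.5–37.7), 32.5 (30.9–34.1), and 132 (129–135), from 1547, 1137, 1556, and 7418 UMIs. The Tbx1+/+ carrier library was lowest and the PGE2 library highest, and the intervals of the Tbx1neo2/neo2 carrier and minoxidil libraries overlapped.

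Rag1 and Rag2 encode the recombinase and lie tail to tail on chromosome 2, Rag2 at chr2:101624718-101632529 on the plus strand and Rag1 at chr2:101638282-101649501 on the minus strand, 5752 bases apart (GRCm38). The promoter of Rag1 is shown because it held the most motif kinds among the 10 genes. The line covers chr2:101649533-101649782 on the minus strand (RefSeq, GRCm38). The capitals mark CAGGTG at 135, CAGCTG at 128, and TGTGGT at 81 and 67 bases before the start.

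Rag1 promoter: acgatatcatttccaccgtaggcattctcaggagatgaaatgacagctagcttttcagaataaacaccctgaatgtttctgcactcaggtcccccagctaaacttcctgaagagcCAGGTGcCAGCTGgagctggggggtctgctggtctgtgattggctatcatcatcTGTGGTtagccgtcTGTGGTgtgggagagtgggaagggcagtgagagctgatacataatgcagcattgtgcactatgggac

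Over the 10 genes, 13 promoters were listed in RefSeq. Both strands were searched for 5 motifs, named by the factors that bind such letters. CAGGTG, an E-box, was in 7 of the 13 promoters (of Zap70, Cd247, Rag1, Lck, Cd3g, and Cd3d), beside 17.2% of all promoters. CAGCTG, another E-box, was in 2 of 13 (Rag1 and Ptcra). TGTGGT, a RUNX motif, was in 3 of 13 (Zap70, Rag1, and Lck) beside 14.0% of all promoters, and AGATAA, the letters bound by GATA factors, was in 1 of 13 (Cd3g) beside 9.99%. TTCAAAG, a TCF/LEF motif, was in 0 of 13 beside 4.46%. A match is a run of letters and not a shown binding site, and promoters of 1 gene can overlap.

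Rag1 had 31.3 CPM (30.2–32.4), 61.2 (58.6–64.0), 62.1 (59.9–64.4), and 163 (159–166) in Ptprc-positive cells, with overlapping intervals in the Tbx1neo2/neo2 carrier and minoxidil libraries. Rag2 had 31.2 (30.04–32.3), 34.7 (32.7–36.9), 47.0 (45.0–48.9), and 58.5 (56.5–60.5) CPM. The order of libraries was the same for both recombinase genes, but Rag2 spanned a narrower range.

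Lck (chr4:129548344-129573641, minus strand) encodes the kinase that phosphorylates the CD3 chains, and Zap70 (chr1:36761798-36782818, plus strand) the kinase that binds them once phosphorylated. Lck had 106 CPM (104–108), 108 (104–111), 130 (126–133), and 196 (193–200), and Il2ra (chr2:11642807-11693193, plus strand) had 89.3 (87.4–91.2), 90.6 (87.3–94.0), 109 (106–112), and 178 (174–181). For both genes the intervals of the carrier libraries overlapped. Zap70 was rare, with 154, 76, 78, and 252 UMIs, and had 1.63 (1.38–1.91), 2.37 (1.87–2.97), 1.63 (1.29–2.03), and 4.50 (3.96–5.09) CPM. Its intervals overlapped in all libraries except PGE2. The 10 genes together made up 722, 973, 1082, and 2221 CPM.

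**Figure D1:**
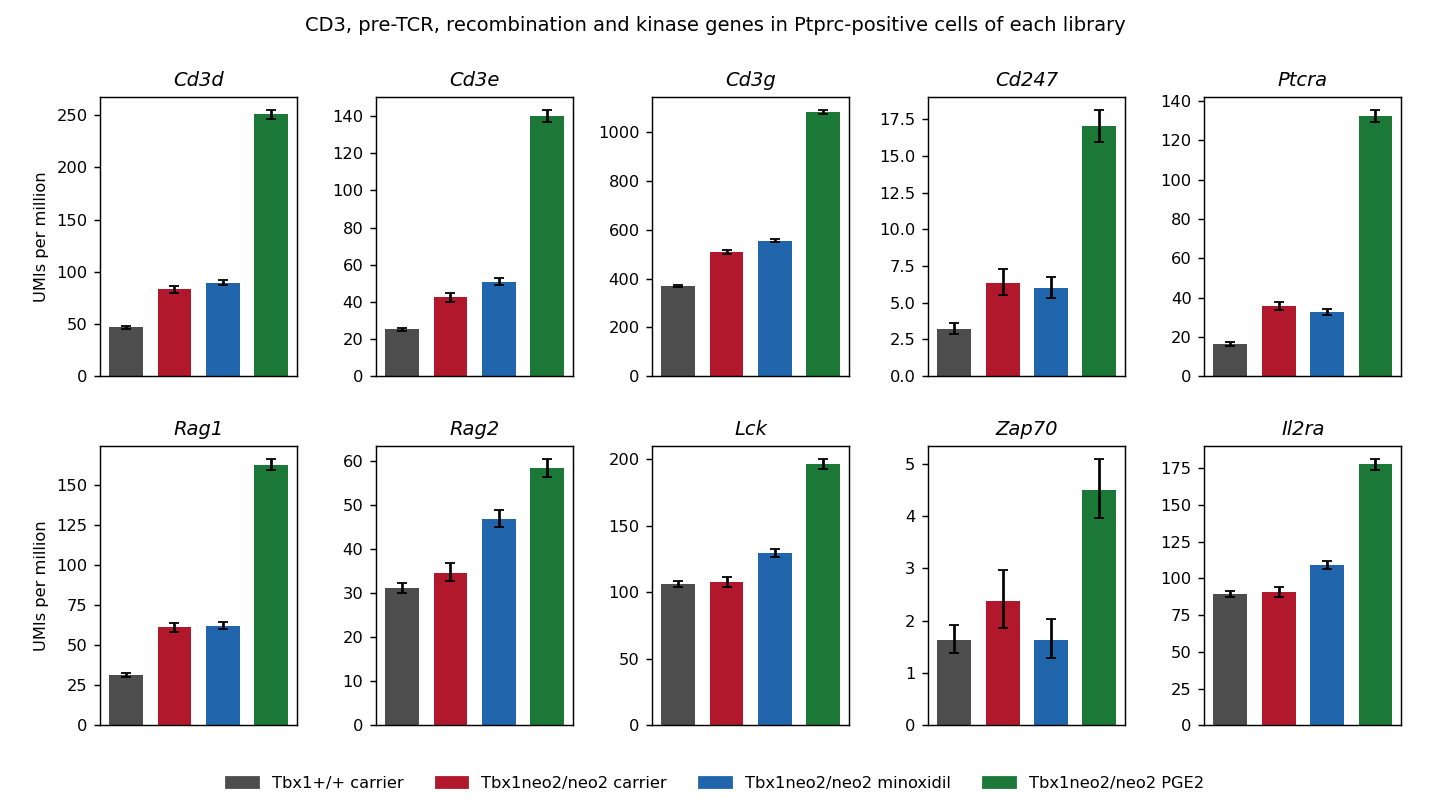
Level of each of the 10 genes in Ptprc-positive cells, in CPM on a linear axis from 0 that differs between panels, with 1 bar per library and exact Poisson 95% intervals that cover counting error only. The PGE2 bar is the highest in all 10 panels, and the Tbx1+/+ carrier bar is the lowest in 9, with Zap70 as the exception.

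The first comparison asked how the genes differ between genotypes. A gene was called when its levels differed at least 1.5-fold and their Poisson intervals did not overlap. In the Tbx1neo2/neo2 carrier library, 5 of the 10 genes were called higher than in the library labelled Tbx1+/+, and 0 were called lower. Among 15569 genes with enough UMIs, 12.9% were called higher and 3.59% lower. Ptcra was 2.17-fold higher (log2 ratio 1.12, 1.0 to 1.23), Cd247 1.98-fold (0.99, 0.72 to 1.25), and Rag1 1.96-fold (0.97, 0.89 to 1.05). Cd3d was 1.77-fold higher (0.82, 0.75 to 0.89) and Cd3e 1.69-fold (0.75, 0.66 to 0.85). The genes that were not called were Cd3g at 1.38-fold, Zap70 at 1.46-fold, Rag2 at 1.12-fold, Il2ra at 1.02-fold, and Lck at 1.01-fold. The median log2 ratio was 0.65 over the 10 genes and 0.02 over all genes. In cells without myeloid markers, 7 of the 10 genes were called higher, beside 8.56% of all genes. In all Ptprc-positive cells at a threshold of 2-fold, Ptcra alone was called higher, beside 8.74% of all genes.

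With minoxidil against the Tbx1neo2/neo2 carrier library, 0 of the 10 genes were called higher and 0 lower. Over all 14870 genes, 3.5% were called higher and 16.3% lower. Zap70 differed most, at 0.686-fold (log2 ratio −0.54, −1.02 to −0.07), and Rag2 was at 1.35-fold (0.43, 0.33 to 0.54). Lck, Il2ra, and Cd3e each stood at 1.2-fold. Cd3g, Cd3d, and Rag1 stood at 1.09-fold, 1.08-fold, and 1.01-fold, and Cd247 and Ptcra at 0.94-fold and 0.914-fold. The median log2 ratio was 0.11 over the 10 genes and −0.06 over all genes. In cells without myeloid markers, 0 of the 10 genes were called in either direction, beside 3.25% of all genes higher and 11.8% lower. The medians there were −0.04 over the 10 genes and −0.03 over all genes. Ptcra was called lower when cells with at least 2 UMIs of Epcam, Pdgfra, or Cdh5 were left out (6.26% of all genes called lower) or when the mitochondrial limit was lowered to 5% (13.7%).

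PGE2 was set against the same Tbx1neo2/neo2 carrier library, so the comparisons of both agents share that control. All 10 genes were called higher with PGE2 and 0 lower, where 3.58% of all 14822 genes were called higher and 22% lower. Ptcra was 3.73-fold higher (log2 ratio 1.90, 1.81 to 1.99), Cd3e 3.31-fold (1.73, 1.64 to 1.81), and Cd3d 3.02-fold (1.59, 1.53 to 1.65). These are genes of the pre-TCR complex. Cd247 and Cd3g belong to it too, with Rag1 between them. Cd247 was 2.67-fold higher (1.42, 1.2 to 1.64), Rag1 2.66-fold (1.41, 1.34 to 1.48), and Cd3g 2.12-fold (1.09, 1.06 to 1.11). The narrowest differences were those of Il2ra at 1.96-fold, Zap70 at 1.89-fold (0.92, 0.55 to 1.31), Lck at 1.83-fold, and Rag2 at 1.68-fold. The median log2 ratio was 1.25 over the 10 genes and −0.12 over all genes. Of the 10, Cd3d, Cd3e, Cd247, and Ptcra were called once cells with at least 2 UMIs of Epcam, Pdgfra, or Cdh5 were left out (558 PGE2 and 609 carrier cells kept, 2.14% of all genes called higher), and Cd3e alone in cells without Bcl11b. The log2 ratios without the Epcam, Pdgfra, or Cdh5 cells were 0.96 for Cd3e, 0.89 for Ptcra, 0.65 for Cd3d, and 0.61 for Cd247, and between 0.093 (Rag2) and 0.52 (Cd3g) for the other genes. In cells without myeloid markers, 9 of the 10 genes were called higher with PGE2, beside 2.84% of all genes. Rag2 at 1.48-fold was not called there, and the differences of all 10 genes were narrower (Ptcra 3.36-fold, Rag1 2.29-fold, and Cd3g 1.85-fold).

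**Figure D2:**
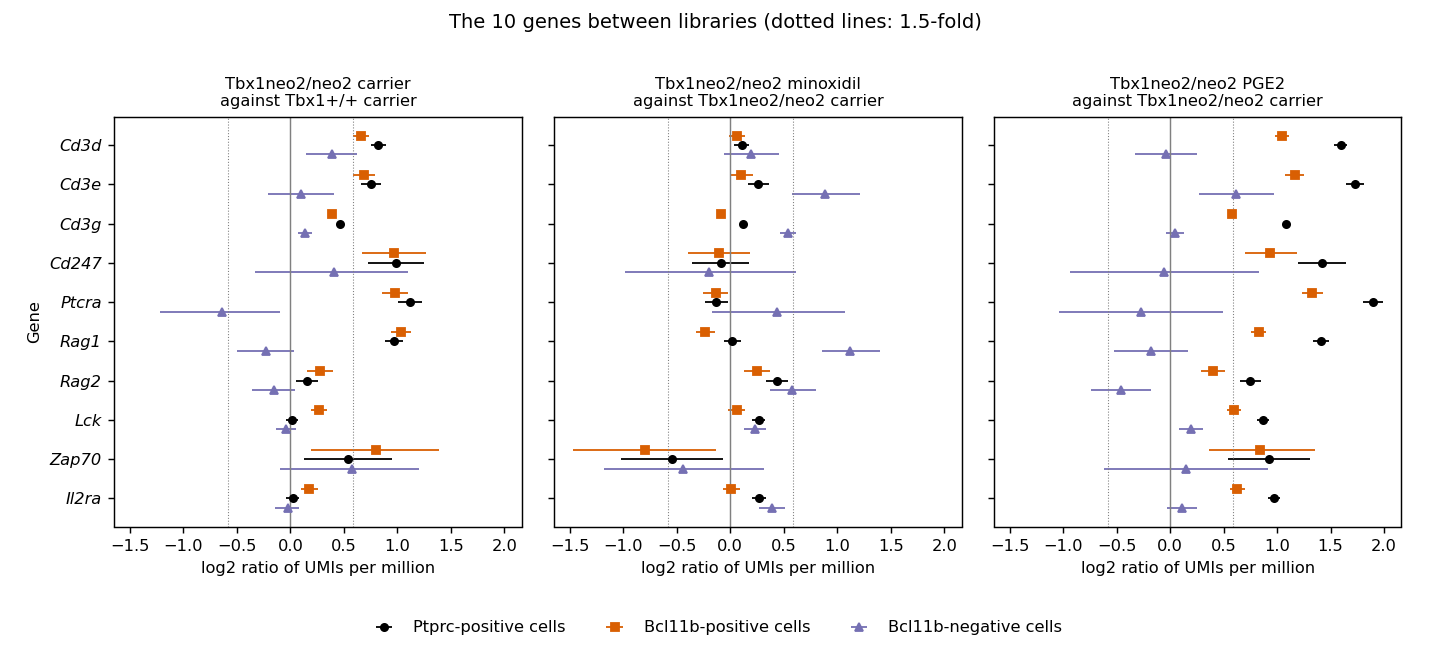
Log2 ratio of CPM for each of the 10 genes in the 3 comparisons, for Ptprc-positive cells (black circles), Bcl11b-positive cells (orange squares), and Bcl11b-negative cells (purple triangles), with 95% intervals of counting error and dotted lines at 1.5-fold. In the PGE2 panel the black points of all 10 genes lie right of the dotted line and most purple points lie near 0.

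A sum over Ptprc-positive cells mixes how many cells express a gene with how much each expresses. Bcl11b, a factor that T cell precursors switch on as they commit to the lineage, was therefore used to split the cells without myeloid markers. Cells with a Bcl11b UMI were 33.0%, 43.3%, 45.1%, and 71.5% of Ptprc-positive cells. A Bcl11b UMI does not by itself mark a T cell precursor, since after thinning of each cell to 5000 UMIs Bcl11b was also detected in 16.04%, 16.6%, 13.2%, and 14.4% of the cells of the epithelial gate, against 14.3%, 25.7%, 21.2%, and 49.1% of Ptprc-positive cells. It was in 0.611%, 10.7%, 0.136%, and 0.185% of cells of the mesenchymal gate. In the Tbx1+/+ carrier library its share was thus no higher in Ptprc-positive than in epithelial cells. The 10 genes were tied to these cells to unequal degrees. Ptcra was 8.50-fold, 26.1-fold, 17.5-fold, and 79.0-fold higher in Bcl11b-positive than in Bcl11b-negative cells of the 4 libraries. Rag1 was 4.21-fold, 10.1-fold, 3.95-fold, and 20.3-fold higher, and Rag2 2.02-fold, 2.73-fold, 2.17-fold, and 4.94-fold. Lck (1.28-fold, 1.59-fold, 1.41-fold, and 2.09-fold) and Zap70 (1.04-fold, 1.22-fold, 0.95-fold, and 1.98-fold) separated the cells less. The split used raw UMIs, at median depths of 40718, 33423, 67109, and 48479 UMIs in Bcl11b-positive cells and 36215, 31631, 67521, and 49009 in Bcl11b-negative cells. A Bcl11b UMI is missed more often in shallower cells, and the part of depth in these shares and folds was not tested.

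Within Bcl11b-positive cells, Ptcra had 36.3, 71.4, 65.0, and 180 CPM, Rag1 had 60.1, 123, 105, and 218, and Cd3d had 103, 163, 170, and 336. The PGE2 library stood highest for 10 of the 10 genes there too. The Tbx1neo2/neo2 carrier library was called higher than the Tbx1+/+ carrier library for Cd3d, Cd3e, Cd247, Ptcra, and Rag1 (log2 ratios 0.66, 0.69, 0.97, 0.98, and 1.03), beside 8.43% of all genes called higher and 5.78% lower. Other markers differed there too, so the split did not leave like cells. Of 14 progenitor and cytokine receptor genes, 7 were lower and 0 higher, and 4 of 4 cortical epithelial genes were lower. The 3 collagens and Bcl11b itself were higher. Their part in the 5 calls was not tested. Minoxidil had 0 of the 10 called in either direction, beside 3.32% of all genes higher and 11.5% lower. PGE2 had 8 of the 10 called higher, beside 2.71% of all genes higher and 18.7% lower. Ptcra was 2.52-fold higher with PGE2, Cd3e 2.24-fold, Cd3d 2.07-fold, and Rag1 1.77-fold, whereas Cd3g at 1.49-fold and Rag2 at 1.32-fold were not called.

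In Bcl11b-negative cells the order of libraries was another one. Minoxidil had the highest level of 7 of the 10 genes, and PGE2 had the lowest level of Ptcra, Rag1, and Rag2. Rag1 had 14.3, 12.2, 26.5, and 10.8 CPM there, and Ptcra had 4.27, 2.74, 3.71, and 2.27. With minoxidil, Cd3e (1.85-fold) and Rag1 (2.18-fold) were called higher than in the Tbx1neo2/neo2 carrier library, beside 3.28% of all genes higher and 6.93% lower. PGE2 had Cd3e called higher at 1.53-fold, beside 2.63% of all genes higher and 5.59% lower. Between genotypes 0 of the 10 were called, beside 3.44% of all genes higher and 3.38% lower.

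To compare shares of cells across depths, each cell was thinned to 5000 UMIs, which left 2307, 888, 692, and 1139 Ptprc-positive cells and left out 26, 4, 0, and 3. Cd3g was then detected in 41.6%, 49.4%, 56.8%, and 71.3% of Ptprc-positive cells (59.1%, 61.2%, 73.3%, and 81.0% unthinned), but in 0.611%, 0.387%, 0.815%, and 0.370% of thinned mesenchymal cells (1.88%, 1.38%, 4.31%, and 4.78% unthinned), which should lack it. The mesenchymal cells had median depths of 16050, 14592, 29322, and 24288 UMIs. Ptcra was detected in 5.72% (4.81–6.75), 11.4% (9.36–13.6), 11% (8.75–13.6), and 31.7% (29.0–34.5) of thinned Ptprc-positive cells (15.2%, 25.1%, 29.0%, and 49.7% unthinned). The 4 libraries stood in the same order by their share of thinned cells with Bcl11b, given above.

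Rag1 was in 12.2%, 18.9%, 20.5%, and 39.0% of thinned cells, and Rag2 in 13.5%, 13.9%, 17.5%, and 22.1%. Il2ra was in 21.0%, 22.1%, 22.5%, and 36.8%, and Lck in 37.6%, 39.4%, 42.2%, and 58.3%. Zap70 was in 0.824%, 2.03%, 1.01%, and 2.19%, too few cells to order the libraries. For the other 9 genes the PGE2 library had the highest share.

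**Figure D3:**
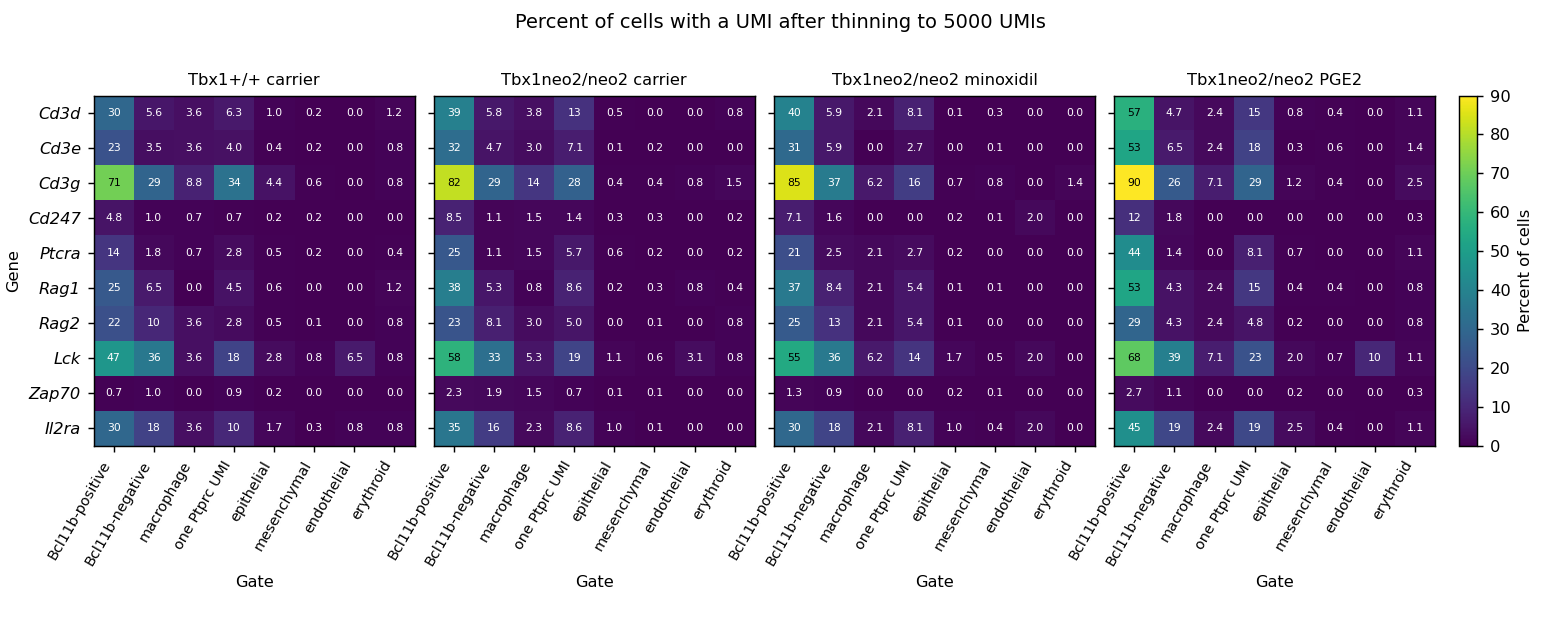
Percent of cells with a UMI of each gene after thinning every cell to 5000 UMIs, by cell gate (columns) and library (panels), with the value printed in each square and color from 0% to 90%. Bcl11b-positive cells carry the highest shares, Lck and Cd3g remain above 25% in Bcl11b-negative cells, and the stromal and erythroid columns stay at or below 10%.

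Counting how many of the 10 genes a thinned cell showed set the libraries apart further. Cells with none of them were 29.7%, 31.8%, 23.3%, and 12.8% of Ptprc-positive cells. Cells with at least 5 were 5.81% (4.89–6.84), 14.6% (12.4–17.1), 13.2% (10.7–15.9), and 37.9% (35.1–40.8). The mean was 1.58, 1.98, 2.13, and 3.52 genes per cell. Among Bcl11b-positive cells, 16.4%, 31.9%, 27.6%, and 52.8% showed at least 5 genes, but only 0.650%, 1.95%, 1.56%, and 0.360% of Bcl11b-negative cells did. In the epithelial gate 91.1%, 97.1%, 95.7%, and 92.9% of cells showed none.

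**Figure D4:**
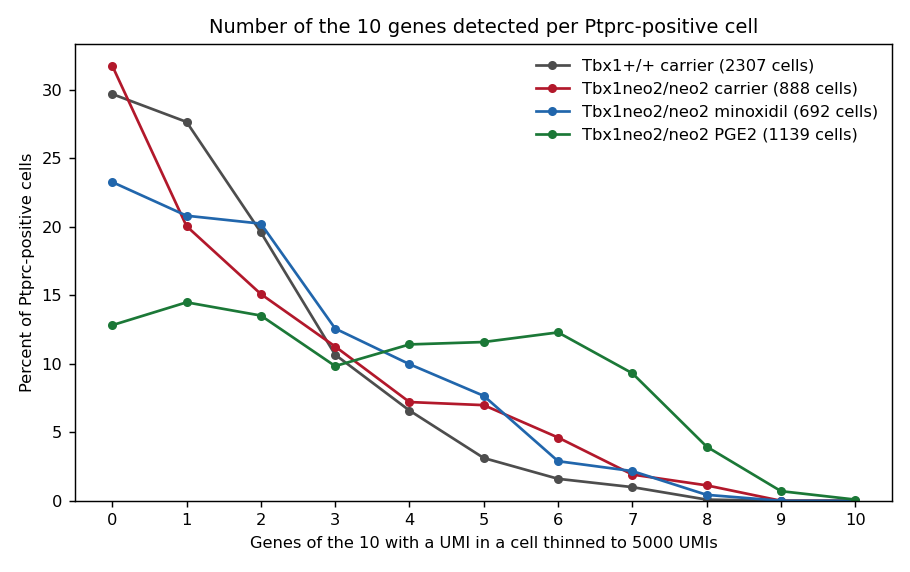
Percent of Ptprc-positive cells (vertical axis) by the number of the 10 genes with a UMI after thinning each cell to 5000 UMIs (horizontal axis), with 1 line per library. Carrier and minoxidil lines fall from 0 or 1 gene onward, while the PGE2 line has a second peak at 6 genes.

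The genes appeared together in cells more often than the product of their shares for 36 of 45 pairs in all 4 libraries, and for 29 of 45 pairs within Bcl11b-positive cells. Over all Ptprc-positive cells, most exceptions were pairs with Zap70. Any excess over the product was counted, and pairs of other genes were not counted beside it. Ptprc-positive cells mix several cell types, and the part of that mix in these counts was not tested. Ptcra and Rag1 shared 66, 67, 46, and 270 cells, which was 4.09, 3.51, 2.95, and 1.92 times the product of their shares. Rag1 and Rag2, which act as 1 enzyme, shared 88, 48, 47, and 158 cells, 2.31, 2.06, 1.89, and 1.61 times the product. The highest value such a ratio can take is lower where the genes are in more cells, so ratios cannot be compared across libraries.

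Detection was nested rather than mutual for Ptcra and Cd3g. Of the cells with Ptcra, 84.1%, 95.05%, 93.4%, and 98.1% also had Cd3g, whereas 11.6%, 21.9%, 18.1%, and 43.6% of the cells with Cd3g had Ptcra. Of the cells with Ptcra, 50%, 66.3%, 60.5%, and 74.8% had Rag1. Of the cells with Rag2, 28.2%, 39.0%, 38.8%, and 62.7% had Rag1, while 31.2%, 28.6%, 33.1%, and 35.6% of those with Rag1 had Rag2. A gene with more UMIs is detected more often in a shared cell, so these shares describe detection and not an order in time.

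Epcam, an epithelial adhesion gene, had at least 2 UMIs in 28.5%, 25%, 36.7%, and 50.3% of Ptprc-positive cells. This split was added after values had been seen. Cells with 2 to 4 Epcam UMIs were set against those with none within each library. Higher in the former were 7 of the 10 genes in the Tbx1+/+ carrier library (5.66% of all genes), 9 in the Tbx1neo2/neo2 carrier library (5.83%), 8 with minoxidil (2.96%), and 10 with PGE2 (3.96%). Ptcra was 6.61-fold, 4.35-fold, 5.07-fold, and 9.40-fold higher, and Lck 1.43-fold, 1.59-fold, 1.47-fold, and 1.75-fold. At 5 or more Epcam UMIs, Ptcra was lower again in both carrier libraries (17.7 CPM against 49.4 at 2 to 4 UMIs with Tbx1+/+, and 53.7 against 69.2 with Tbx1neo2/neo2). It was higher still with minoxidil (72.4 against 45.3) and with PGE2 (265 against 167).

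The epithelial keratin gene Krt8 stood highest in the cells with 5 or more Epcam UMIs in all 4 libraries, but from 0 to 2 to 4 Epcam UMIs it was not higher with minoxidil. In cells with no Epcam UMI it had 13.5, 4.32, 10.2, and 8.39 CPM, in cells with 2 to 4 it had 79.3, 25.2, 8.71, and 17.7, and in cells with 5 or more it had 610, 326, 338, and 213. Cells with at least 5 UMIs of Krt8 and Krt18 together were 18.5%, 5.97%, 5.06%, and 2.27% of the cells with 2 to 4 Epcam UMIs, and 82.8%, 66.3%, 31.3%, and 13.5% of those with 5 or more. Without cells that had 5 keratin UMIs or 2 UMIs of Pdgfra or Cdh5, 9 of the 10 genes were called higher with PGE2 (3.03% of all genes), all except Rag2. The part of doublets and free RNA in the Epcam counts was not tested.

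**Figure D5:**
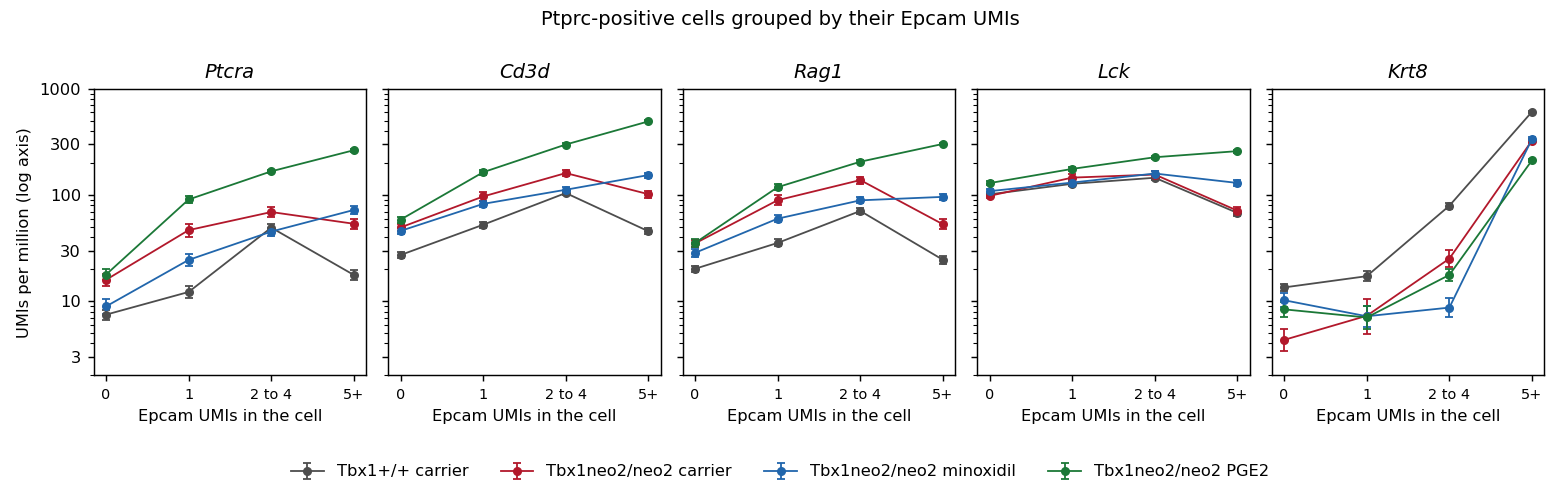
Level of Ptcra, Cd3d, Rag1, Lck, and the keratin gene Krt8 in Ptprc-positive cells grouped by their Epcam UMIs (horizontal axis), in CPM on a log axis with 95% Poisson intervals and 1 line per library. Ptcra, Cd3d, and Rag1 climb from 0 through 2 to 4 Epcam UMIs in all 4 libraries, Lck changes less, and Krt8 climbs most at 5 or more.

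Ptprc-positive cells held 88.4%, 89.4%, 97.4%, and 96.5% of the UMIs of the 10 genes in kept cells. The share was lowest for Zap70, at 63.1%, 60.8%, 69.6%, and 87.8%. Zap70 had 61, 16, 25, and 22 UMIs in the epithelial gate, beside 154, 76, 78, and 252 in Ptprc-positive cells. Cells with exactly 1 Ptprc UMI held a further 5.41%, 6.28%, 0.836%, and 1.40%. Cd3e, Cd3g, Ptcra, Rag2, and Il2ra were at least 10-fold higher in Ptprc-positive cells than in every stromal and erythroid gate of every library, as were 2.33% of 16302 genes. That count was 0 when stromal cells with any Ptprc count were admitted to the gates.

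Lck was also counted in endothelial cells. In the endothelial gate (Cdh5, no Ptprc UMI) it had 12.7, 6.51, 7.16, and 13.3 CPM, and 31.0%, 14.9%, 21.2%, and 30.8% of 126, 134, 52, and 52 cells had a UMI before thinning. Endothelial cells held 3.76, 4, 6.33, and 17.0 Lck UMIs per Cd3g UMI, whereas Ptprc-positive cells held 0.287, 0.211, 0.234, and 0.182. The endothelial ratios rest on 17, 6, 3, and 2 Cd3g UMIs. The ratio was also above that of Ptprc-positive cells in the epithelial gate (0.717, 1.15, 2.42, and 0.509) and in the mesenchymal gate (1.43, 1.03, 0.636, and 0.556).

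Part of the Il2ra UMIs of the epithelial gate lay in a small set of cells, the smallest part in the Tbx1+/+ carrier library. Median depths in that gate were 24903, 26812, 52633, and 44605 UMIs, so a cutoff in raw UMIs was not equally strict across libraries. In the epithelial gate (Epcam, no Ptprc UMI), cells with at least 3 Il2ra UMIs numbered 9 of 3778 (0.238%), 8 of 1076 (0.743%), 22 of 931 (2.36%, 1.49–3.56), and 37 of 1206 (3.07%, 2.17–4.20). They held 65 of 258, 38 of 66, 206 of 244, and 288 of 360 of the Il2ra UMIs of that gate. Since they were selected for Il2ra, only other genes are informative in them. Krt5, a basal keratin gene, had 2421, 3343, 5560, and 4933 CPM in them, beside 940, 470, 669, and 583 CPM in epithelial cells without Il2ra. Krt17 had 1552, 2159, 3553, and 4300 CPM beside 581, 248, 302, and 228. Psmb11, a proteasome gene of cortical thymic epithelium, had 59.3, 20.8, 66.0, and 52.2 CPM beside 197, 189, 202, and 258. Cd3g had 74 and 6 UMIs in those cells of the carrier libraries and 2 each with minoxidil and PGE2. Its levels were 220, 17.8, 0.846, and 0.916 CPM, beside 4.80, 2.19, 1.30, and 2.76 CPM in epithelial cells without Il2ra. Lck had 74.2, 8.92, 4.65, and 5.04 CPM beside 4.03, 2.91, 3.10, and 3.24. The part of doublets and free RNA in these cells was not tested.

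Further genes of the pathway were taken from fixed lists and counted by the same call, with the percentages of all genes given above as the background. Of 38 signalling and co-receptor genes with enough UMIs, 2 were called higher and 2 lower in the Tbx1neo2/neo2 carrier against the Tbx1+/+ carrier library, 3 higher and 0 lower with minoxidil, and 16 higher and 0 lower with PGE2. Between genotypes, Cd2 and Skap1 were the genes called higher, and Cd6 and Malt1 those called lower. Fyb, Ptpn6, Csk, and Cd27, the genes of the list with most UMIs, were not called in any of the comparisons. Skap1, an adaptor of T cell signalling, had 7.28 CPM in the Tbx1+/+ carrier library, 16.3 in the Tbx1neo2/neo2 carrier library, and 44.4 with PGE2. With minoxidil, Skap1 was not called. Thy1, a surface protein of T lineage cells, was 2.94-fold higher with PGE2 than with carrier (87.2 against 29.7 CPM). The co-stimulatory receptor gene Cd28 was also 2.94-fold higher (7.89 against 2.69 CPM). Skap1, Thy1, and Cd28 were given with levels after their values had been seen. The median log2 ratios of the list were −0.00, 0.19, and 0.51 in the 3 comparisons. Within Bcl11b-positive cells, 9 of 37 signalling and co-receptor genes were called higher with PGE2 and 0 lower, beside 2.71% of all genes higher.

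Partners of the recombinase were counted next. Of 13 recombination and end joining genes, 0 were called in the comparison of genotypes, 0 with minoxidil, and 2 higher (Lig4 and Xrcc6) with PGE2, with median log2 ratios of 0.10, 0.04, and 0.11. Xrcc6, a subunit of the Ku complex that binds broken DNA ends, had 46.9, 45.2, 51.1, and 86.6 CPM. Of 16 Notch and T-lineage factors, Bcl11b was called higher between genotypes, Nrarp with minoxidil, and 8 with PGE2 (Notch1, Hes1, Dtx1, Tcf7, Bcl11b, Lef1, Ets1, and Myb), with 0 called lower. Tcf7, a factor induced by Notch in early precursors, had 191, 173, 241, and 285 CPM. The Notch target Hes1 had 159, 136, 202, and 235 CPM, and Myb 264, 240, 311, and 373. Within Bcl11b-positive cells, 3 of the 16 factors were called higher with PGE2 (Hes1, Lef1, and Ets1) and 0 lower. Of the 13 recombination and end joining genes, Xrcc6 alone was called higher there.

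Of 14 progenitor and cytokine receptor genes, 4 were called lower (Cd34, Lyl1, Hhex, and Cd93) and 0 higher in the Tbx1neo2/neo2 carrier against the Tbx1+/+ carrier library. Minoxidil had 1 higher (Lyl1) and 3 lower (Il2rb, Lmo2, and Mef2c), and PGE2 had 1 higher (Lyl1) and 3 lower (Flt3, Lmo2, and Mef2c), shares of lower calls near those over all genes. The median log2 ratios of the list were −0.13, 0.045, and −0.33. Cd34, a marker of progenitors, had 93.7, 60.3, 83.2, and 44.3 CPM, and Mef2c, a factor of early progenitors, 76.7, 94.6, 54.2, and 42.0. The macrophage markers had 10 of 10 called higher between genotypes, 9 of 10 lower with minoxidil, and 10 of 10 lower with PGE2, the latter opposite in direction to the 10 genes.

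The genes most like the summed 10 across thinned Ptprc-positive cells were ranked by the lowest of their 4 Pearson correlations, 1 per library, among 6693 genes. Gzma, a granzyme gene, stood first with a lowest r of 0.66 (0.66, 0.78, 0.70, and 0.73 by library). Crip1 and Ifitm2 followed at 0.50, Akr1c13 at 0.48, H19 at 0.43, Sec61b at 0.41, Ifitm1 at 0.40, Bcl11b and Arpp21 at 0.37, and Nlrp6 at 0.36. These correlations are across cells of 1 library each, which share library and depth of thinning, and are given as a description. Gzma, Ifitm1, and Ifitm2 stood on a list of innate-like genes fixed for these cells. Of the 12 genes of that list, 1 was called higher (Ncr1) between genotypes, 2 of 11 lower with minoxidil (Ncr1 and Eomes), and 0 with PGE2. With PGE2, 3.58% of all genes were called higher and 22% lower. Within Bcl11b-positive cells, 3 of 10 were higher between genotypes (Klrd1, Ccl5, and Ncr1) and 0 lower, beside 8.43% of all genes higher. The same 3 of 9 were lower there with minoxidil, beside 11.5% of all genes. With PGE2, 4 of 9 were lower (Klrd1, Gzmb, Ccl5, and Ncr1), beside 18.7%, and 0 were higher with either agent.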

How the data were processed

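Cells of E13 to 13.5 thymic lobes were profiled with droplet single-cell RNA sequencing, 1 library per group, and groups came from the genotype and treatment labels. The deposited values are raw UMI counts. Per the labels, the authors ran Cell Ranger 5.0.1 on mm10, and the counts were not normalized. Whether intronic reads were counted is not given in the sources used here. The processing notes also name Seurat.

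A cell was kept when it had no fewer than 200 genes and no more than 10% mitochondrial UMIs, and no doublet caller was run. Gates used raw UMIs. Ptprc-positive cells had at least 2 Ptprc UMIs and less than 20% hemoglobin UMIs. Stromal gates needed no Ptprc UMI and at least 2 UMIs of only 1 of Epcam, Pdgfra, or Cdh5, and the erythroid gate needed at least 20% hemoglobin UMIs. The macrophage gate, and likewise a granulocyte gate of 9 markers, needed UMIs of at least 4 markers, and the other Ptprc-positive cells were split by Bcl11b (at least 1 UMI or none). UMIs were summed per gate and library and scaled to 1000000 UMIs of that gate (CPM), with exact Poisson 95% intervals, exact conditional binomial intervals for ratios, and exact Clopper-Pearson intervals for shares. Free RNA and PCR can add error that these intervals do not cover.

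A gene was called at 1.5-fold with Poisson intervals that did not overlap, among genes with at least 20 UMIs in both libraries together, and a level of 0 was set to a floor of 3 counts. No p-value was made from cells. For shares, cells were thinned at random to 5000 UMIs and shallower cells were left out. By rule, the genes given with levels beside the 10 were the called genes among the 4 with most UMIs of each pathway list. The 10 genes most like the summed 10 were named too. Outside this rule, Skap1, Thy1, Cd28, the keratin genes, and Psmb11 were named after values had been seen. The members, lists, and rules were chosen with earlier results of these data known. Python 3.11.15 (numpy 2.4.6, scipy 1.17.1, pandas 2.3.3, matplotlib 3.10.9) and R 4.3.3 (edgeR 4.0.16, for TMM factors only) were used, and the call rule was tested on simulated data. Libraries held 151740600 to 292687940 UMIs.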

Additional observations from a re-analysis of the deposited data

Results flagged for a closer look

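Cells outside the Ptprc-positive gate and every other gate entered no main comparison of the report. Those with 1 Ptprc UMI could enter the alternatives that asked for 1 Ptprc UMI, before or after thinning, or that took stromal cells with any Ptprc count. Cd3g was counted in the cells outside all gates above the limit of 3 counts. In cells with exactly 1 Ptprc UMI, Cd3g had 166 CPM in the Tbx1+/+ carrier library (707 cells), 279 CPM in the Tbx1neo2/neo2 carrier library (153 cells), 103 CPM with minoxidil (38 cells), and 336 CPM with PGE2 (65 cells). In cells with no Ptprc UMI and no marker of a gate, Cd3g had 29.6 CPM in the Tbx1+/+ carrier library (2459 cells), 4.03 CPM in the Tbx1neo2/neo2 carrier library (4816 cells), 2.72 CPM with minoxidil (598 cells), and 9.09 CPM with PGE2 (777 cells).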

How the results depend on the processing

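The 5 genes called higher in the Tbx1neo2/neo2 carrier against the Tbx1+/+ carrier library became 1 (Ptcra) at a 2-fold call and 0 in Bcl11b-negative cells alone. With minoxidil, the 0 called higher became 2 in Bcl11b-negative cells. The 0 called lower became 1 with the mitochondrial limit at 5% and 1 without cells with 2 UMIs of Epcam, Pdgfra, or Cdh5 (Ptcra in both), and 1 without cells with 2 UMIs of Pdgfra or Cdh5 and 1 without cells with 5 keratin UMIs or 2 UMIs of Pdgfra or Cdh5 (Zap70 in both). With PGE2, the 10 called higher became 6 at a 2-fold call, 4 without cells with 2 UMIs of Epcam, Pdgfra, or Cdh5, and 1 in Bcl11b-negative cells. The cause was not tested, other than that a 2-fold call is stricter by construction. Called ratios changed sign only in Bcl11b-negative cells, where the log2 ratio between genotypes was −0.64 for Ptcra and −0.23 for Rag1, and that of PGE2 against the Tbx1neo2/neo2 carrier was −0.038 for Cd3d, −0.056 for Cd247, −0.27 for Ptcra, −0.18 for Rag1, and −0.46 for Rag2. The 5 genes at least 10-fold above every stromal and erythroid gate became 0 when stromal gates took cells with any Ptprc count, which admits cells with both kinds of marker by construction. Ratios that were not called changed sign more widely: with minoxidil, Rag1 kept its sign in 6 of 12 settings (lowest −0.31), Cd3d and Cd3g in 9, Cd247 and Il2ra in 10, and Cd3e and Ptcra in 11. Of the recomputed counts, 96 were within 1.5 times their first value and 11 were not. Of the recomputed log2 ratios, 219 lay within the first counting interval, 224 outside it, and 7 changed sign, and of the shares 4 lay within it and 116 outside.

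TMM and median-of-ratios scaling shifted the median log2 ratio of all genes by 0.16 and 0.15 with PGE2, and all 10 genes were called higher under both. The alternatives by Bcl11b, by keratins, and by Pdgfra or Cdh5 alone were chosen after seeing the data. No paired analysis was possible because each group has 1 library. Depth limits Zap70 and Cd247 most, with 76 and 204 UMIs in the Tbx1neo2/neo2 carrier library.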

Other observations

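Markers of other cells in the Ptprc-positive gate gave further counts by the same call, in the order of genotypes, minoxidil, and PGE2. Over all genes, 12.9% were called higher and 3.59% lower between genotypes, 3.5% and 16.3% with minoxidil, and 3.58% and 22% with PGE2. These shares are the background for every list below, and a count of 1 or 2 in a short list can lie near them. Of 9 granulocyte genes, 2 were higher and 2 lower, then 5 higher and 1 lower, then 0 higher and 8 lower, with summed levels of 719, 872, 1473, and 201 CPM by library. Of 7 lymphoid tissue inducer and innate lymphoid genes, 0 were higher and 1 lower (Il18r1), then 0 in either direction, then 1 higher (Il18r1) and 1 lower (Id2). B lineage genes had 1 higher and 2 lower of 7, then 0 higher and 1 lower of 5, then 0 higher and 2 lower of 6, with summed levels of 44.6, 51.0, 33.0, and 26.8 CPM. Of 3 mast cell genes, 2 were higher between genotypes and 1 (Ms4a2) was lower with each agent. Of 4 dendritic genes, 1 (Cd209a) was higher between genotypes and lower with minoxidil, and 3 were lower with PGE2.

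In cortical epithelial genes, 2 of 4 were lower between genotypes (Prss16 and Ccl25) and 1 of 4 (Foxn1) was lower with each agent. Of 3 pericyte genes, 2 were lower between genotypes, 1 (Rgs5) was higher with minoxidil, and with PGE2 Rgs5 was higher and Abcc9 lower. The 3 collagens were higher between genotypes and lower with each agent, and the 3 parathyroid genes were lower between genotypes.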
